A study of Rattus norvegicus with 20 samples.

Results

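Phase I enzymes of drug and alcohol metabolism were followed in the liver of food-restricted rats. The set held every probe set annotated to a single gene whose symbol begins with Cyp1, Cyp2 or Cyp3 plus a letter, with Fmo, Ces or Aldh, or with Adh plus a digit. It came to 55 probe sets for 53 genes among 15866 probe sets on the array, and 45 of them, for 43 genes, were bright enough to be tested. The array names 10411 genes by such single-gene probe sets, 7056 of them tested. A further 4 probe sets are shared by several genes of these families and are described apart from the set.

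Expression was measured in male Wistar rats, an outbred laboratory strain, that entered the study at 6 weeks of age. They ate a full ration (the control groups) or 5, 10, 20 or 30% less, for 1 week or for 1 month. Every group, controls included, was fasted for 16 h before the liver was collected. RNA of 5 rats was combined into 1 pool per group and hybridised to 2 Affymetrix arrays, which gave 10 pools and 20 arrays. Ages in the labels are 6 weeks at the shorter duration and 9 weeks at the longer. Pooling leaves no measure of the spread between rats, and each combination of ration and time had 1 pool only.

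Phase I enzymes make lipid-soluble compounds more reactive or more water-soluble, mostly in the endoplasmic reticulum of hepatocytes. Cytochrome P450 enzymes insert oxygen with electrons passed on by P450 oxidoreductase, flavin monooxygenases oxidise nitrogen and sulphur, and carboxylesterases cleave esters. Ethanol is turned to acetaldehyde by alcohol dehydrogenases and by Cyp2e1, and aldehyde dehydrogenases take the aldehyde to an acid. In rat liver many of these genes differ between the sexes through the pattern of growth hormone release, and several are induced by foreign compounds through the receptors CAR (Nr1i3), PXR (Nr1i2) and AhR.

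Hepatocyte genes were bright in every pool: the summed signal of 8 hepatocyte markers was 47110 and 47202 units in the control pools and lay between 44368 and 47770 units in restricted pools, and 0 of the 8 passed the dose or step test. Signals are in the arrays' own units after quantile normalization, and levels of different probe sets cannot be set against each other. The deposited signals had 2% trimmed means from 38.4 to 98.8 units, a 2.57-fold range. Over the 45 tested probe sets of the set, repeat arrays differed by a median SD of 0.0942 (log2) and the 10 pools by a median SD of 0.233. Over all 9520 tested probe sets the median SD between repeat arrays was larger, 0.236. The 3'/5' signal ratio of GAPDH, a measure of RNA integrity, was 1.51 and 1.52 in the control pools and 1.46 and 1.30 in the 30% pools. In the other restricted pools it ran from 1.33 (20%, 1 week) to 1.61 (5%, 1 month). That of actin was 2.73 and 2.72 in the control pools, 2.23 and 2.28 in the 30% pools and 2.39 to 3.07 in the other restricted pools, and the part of either ratio in the results was not tested beyond its use as a covariate.

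Along the graded ration, 8 of the 45 tested probe sets rose and 2 fell. Here 1.8% of all 9520 tested probe sets rose and 1.96% fell. A trend is a log2 change per 30 percentage points of restriction, fitted with duration in the model, and a call needs a limma adjusted p under 0.05 over all tested probe sets. The genes that rose were Adh1c, Ces1d, Ces1e, Cyp2c23, Cyp2e1, Cyp2j4, Cyp3a18 and Fmo1, and those that fell were Cyp2a2 and Cyp2c12. In a fit with a single step between control and restricted pools, 8 rose and 1 fell, where 3.16% of all tested probe sets rose and 2.11% fell. Adh1c, Cyp2e1, Cyp2j4 and Fmo1 rose in both fits, Adh4, Adh5, Aldh1a1 and Aldh3a2 rose in the step alone, and Cyp2c12 fell in both. The median trend was 0.13 over the 45 probe sets and 0.00 over all those tested. The calls of the trend moved with the processing: 1 of the 10 passed on the signals as deposited, 2 with median centring, 2 without a trend in the variance prior, and 0 and 2 with the GAPDH or the actin 3'/5' ratio as a covariate. Of all 9520 tested probe sets, 18, 27, 42, 1 and 17 rose there, in turn, and 40, 116, 66, 2 and 28 fell. Adh1c, Ces1d, Cyp2c23, Cyp2e1, Cyp2j4, Cyp3a18 and Fmo1 lost their trend call in each of these settings. With the GAPDH ratio in the model the estimates were 0.985 to 1.27 times those reported but standard errors grew, by a median of 1.45 times, leaving 0.0571 as the lowest adjusted p. Without the variance trend 2 of the 9 step calls passed, where 117 of all 9520 tested probe sets rose and 75 fell. Whether bulk changes came from fewer cells of a type or from less RNA per cell cannot be told apart.

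**Figure D1:**
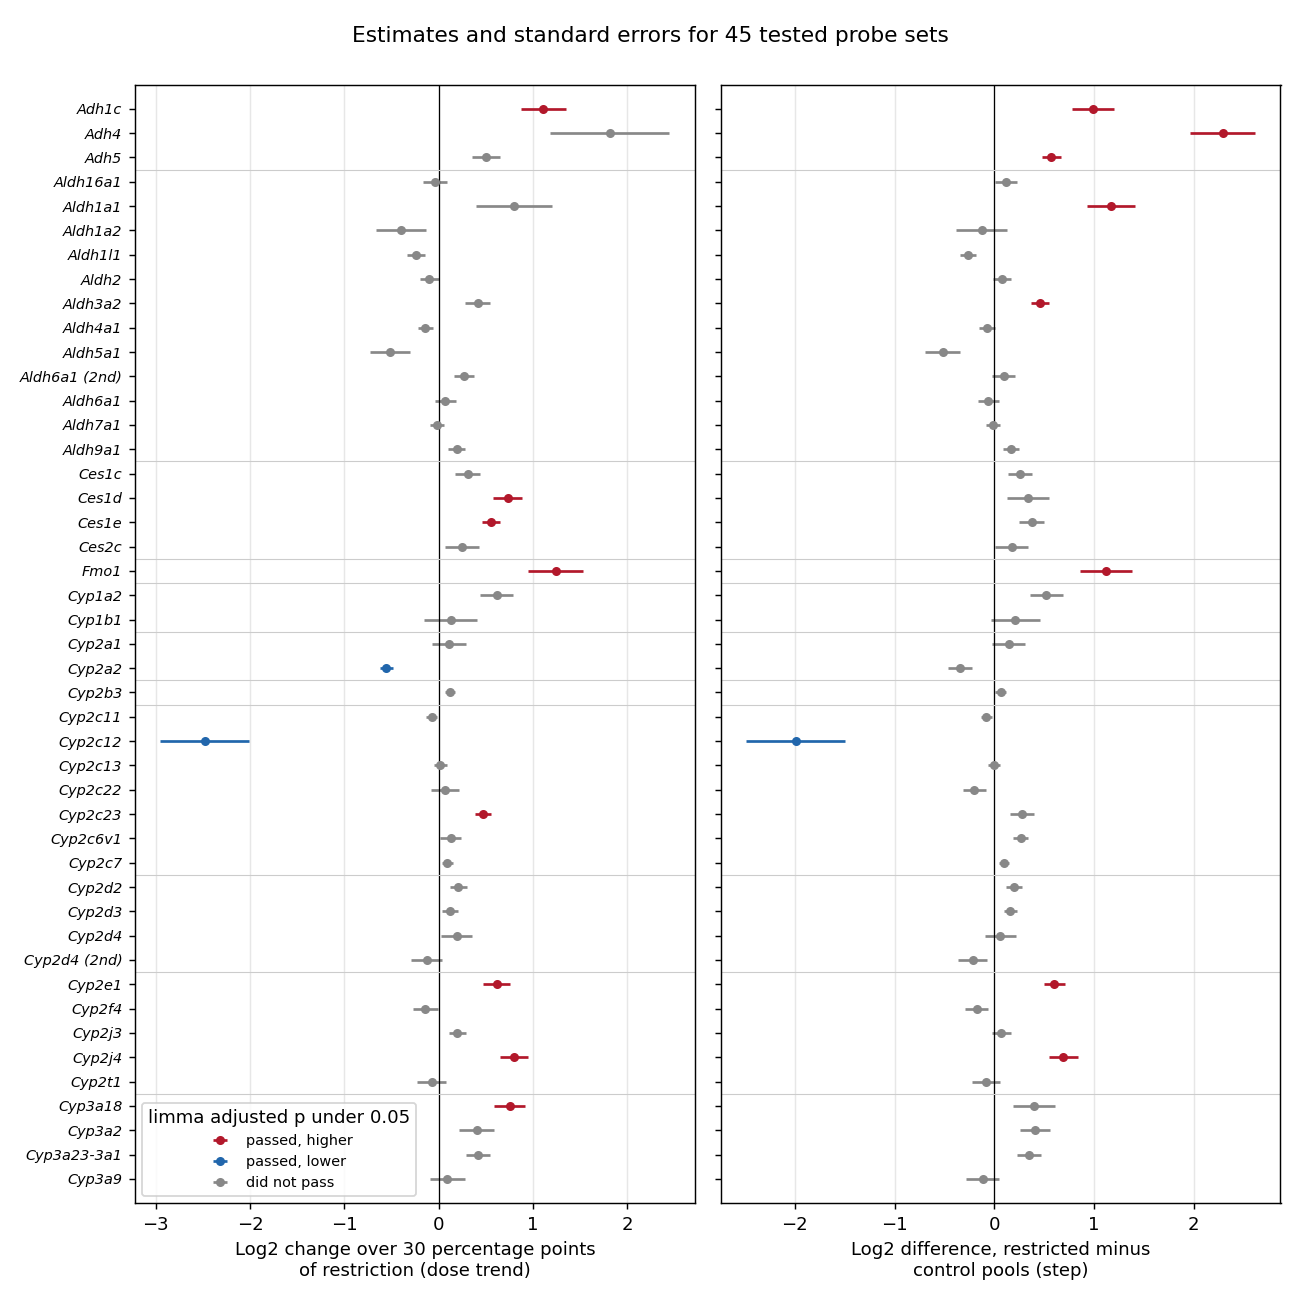
Log2 estimates with standard errors for the 45 tested probe sets, grouped by family: on the left the dose trend over 30 percentage points of restriction, on the right restricted minus control pools. Red and blue points passed at an adjusted p under 0.05 (8 higher and 2 lower on the left, 8 higher and 1 lower on the right), grey points did not; "2nd" marks the dimmer probe set of a gene.

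In the alcohol dehydrogenase family, all 3 tested genes, Adh1c, Adh4 and Adh5, rose in the step, where 3.16% of all tested probe sets did. The fourth, Adh7, the stomach form, was too dim to test, with pool signals between 0.552 and 10.498 units. These 4 genes lie close together on chromosome 2 in the RefSeq rat annotation. The 300 bases around the start of each tested gene (250 before it, 50 after, from RefSeq on build GRCr8) are shown because the neighbours rose together. They span chr2:229470453-229470752 on the + strand for Adh1c, chr2:229621842-229622141 on the + strand for Adh4 and chr2:229648307-229648606 on the + strand for Adh5. Capitals mark CCAAT or its complement, read on both strands. It is held by 37.5% of 33469 rat promoters of this length and by 27 of 47 promoters in the set.
Adh1c: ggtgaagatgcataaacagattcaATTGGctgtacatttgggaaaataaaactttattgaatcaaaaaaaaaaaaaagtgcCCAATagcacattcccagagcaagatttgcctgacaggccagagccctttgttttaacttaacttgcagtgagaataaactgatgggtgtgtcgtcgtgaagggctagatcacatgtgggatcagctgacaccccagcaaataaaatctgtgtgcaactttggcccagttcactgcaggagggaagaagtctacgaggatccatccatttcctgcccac
Adh4: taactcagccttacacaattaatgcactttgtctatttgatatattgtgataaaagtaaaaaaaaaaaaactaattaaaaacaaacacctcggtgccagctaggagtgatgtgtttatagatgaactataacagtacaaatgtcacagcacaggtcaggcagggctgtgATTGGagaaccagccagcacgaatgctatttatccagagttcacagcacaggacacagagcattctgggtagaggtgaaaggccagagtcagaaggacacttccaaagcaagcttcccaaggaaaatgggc
Adh5: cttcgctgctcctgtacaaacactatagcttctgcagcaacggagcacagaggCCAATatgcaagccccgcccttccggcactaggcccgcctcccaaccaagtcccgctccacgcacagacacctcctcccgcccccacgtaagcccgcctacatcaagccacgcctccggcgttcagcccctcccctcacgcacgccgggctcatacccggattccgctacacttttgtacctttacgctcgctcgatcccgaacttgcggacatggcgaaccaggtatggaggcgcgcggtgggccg
The search for the D-box TTANGTAA, the binding letters of the clock factor Dbp, and for the E-box CACGTG found no match in these 3 windows. Adh4 also held 1 match to TATAAA, and no matches of different motifs overlapped in the 3 windows.

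Adh1c, the class I enzyme that oxidises most ethanol in liver, stood at 1483 units in the 1 week control pool and at 1938, 3098, 4180.0 and 4328 units with 5, 10, 20 and 30% restriction. At 1 month its signals were 2466 units in the control pool and 4328, 4352, 4570.0 and 4603 units in the restricted pools. The 1 week pools climbed through the whole series, while at 1 month the mildest restriction already stood near the level of the strongest. The 1 month control pool lay above the 5% pool of 1 week, so control and restricted pools overlapped. The dose trend was 1.11 ± 0.239 (log2, SE, n = 10 pools), a 2.16-fold rise, with an adjusted p of 0.0275 in limma. The step was 0.99 ± 0.214, adjusted p 0.0203 in limma. The SD between its arrays was 0.0416 on the log2 scale. Of 9 settings other than leave-outs, 5 lost the trend call and 1 the step call (limma adjusted p up to 0.120 and 0.0718). Leaving out pools gave trends from 0.90 to 1.44 and adjusted p up to 0.113. The call was lost without the 1 week control, 5, 20 or 30% pool or the 1 month control or 20% pool, and the step call was lost without either control pool, with adjusted p up to 0.238.

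Adh4, a class II alcohol dehydrogenase that also acts on retinol, had the largest step of the set. Its signals were 19.4 units in the 1 week control pool and 35.4, 81.6, 113 and 75.9 units with 5, 10, 20 and 30% restriction. At 1 month the control pool had 12.1 units and the restricted pools 84.5, 92.5, 63.7 and 81.1 units. Both controls lay below every restricted pool, and beyond 5% the restricted pools did not follow the order of the ration. The step was 2.29 ± 0.325, a 4.89-fold difference (adjusted p 0.00238, limma), and the dose trend of 1.82 ± 0.632 did not pass (adjusted p 0.139, limma). The 1 month control rests on arrays that disagreed, at 20.0 and 7.32 units, the second under the lowest mean signal tested, 11.7 units. Without that pool the step was 1.86 with an adjusted p of 0.104, and without its dimmer array it was 1.93 with an adjusted p of 0.00441. Over all alternatives other than leaving out arrays or pools, the adjusted p ran from 1.33e-05 to 0.0191.

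Adh5 encodes the glutathione-dependent formaldehyde dehydrogenase and rose less. It had 214 units in the 1 week control pool and 286, 349, 364 and 331 units in the pools with 5, 10, 20 and 30% restriction, against 239 units and then 325, 328, 349.7 and 358 units at 1 month. Controls and restricted pools did not overlap. The step of 0.57 ± 0.0947 (1.48-fold) had an adjusted p of 0.00583 in limma, and the trend of 0.50 ± 0.152 did not pass (adjusted p 0.0904, limma). Without the 1 week or the 1 month control pool the step kept its size, 0.51 to 0.63 over all such omissions, but not its call, with adjusted p up to 0.115.

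Cyp2e1, the ethanol-oxidising P450 long known to respond to fasting and diabetes, rose in both fits. Its signals were 2779 units in the 1 week control pool and 3319, 4431, 4434 and 4736 units with 5, 10, 20 and 30% restriction. At 1 month the control had 2784 units and the restricted pools 4100.2, 4245, 3940.1 and 4704 units. The 2 controls were nearly equal and lay below all restricted pools. Its step was 0.60 ± 0.106 (1.52-fold, adjusted p 0.00841, limma) and its trend 0.62 ± 0.141 (1.53-fold, adjusted p 0.0347, limma). The trend call was also lost without the filter on signal, without any of 7 pools and without the second arrays, with estimates from 0.50 to 0.68 and adjusted p up to 0.124. Those 7 were the controls of both durations, the 5, 20 and 30% pools of 1 week and the 20 and 30% pools of 1 month. The step call was lost without either control pool and without the variance trend, at adjusted p up to 0.133.

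Of the aldehyde dehydrogenases, 11 of 13 genes were tested: 0 passed the dose trend, and Aldh1a1 and Aldh3a2 rose in the step. Among all tested probe sets 1.8% rose and 1.96% fell along the dose, and 3.16% rose in the step. Aldh1a1, a cytosolic enzyme that oxidises retinal and acetaldehyde, had 88.0 units in the 1 week control pool and 206, 363, 337 and 317 units with 5, 10, 20 and 30% restriction. At 1 month it had 131 units in the control pool and 231, 196, 189.7 and 171 units in the restricted pools. Restricted pools were above both controls throughout, but the 1 week pools lay higher than the 1 month pools from 10% on, and the 1 month series declined after 5%. The step was 1.17 ± 0.240 (2.25-fold, adjusted p 0.0160, limma). Without the variance trend the step did not pass (adjusted p 0.0563, limma). It rests on the 1 week control: without that pool it was 0.58 with an adjusted p of 0.336, and without the 1 month control 1.76. Its slope was 1.503 at 1 week and 0.10 at 1 month, and the test of their difference did not pass (adjusted p 0.927, limma).

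Aldh3a2, which oxidises long-chain fatty aldehydes, moved within a narrower range. It had 1009 units in the 1 week control pool and 1154, 1275, 1501 and 1452 units at 5, 10, 20 and 30%, with 939 units in the 1 month control pool and 1285, 1441, 1369.9 and 1269 units after it. Controls lay below all restricted pools. The step was 0.46 ± 0.0922 (1.38-fold, adjusted p 0.0144, limma). The call was lost on the signals as deposited, with median centring, without the variance trend and without either control pool, at adjusted p up to 0.224, while the estimate stayed between 0.41 and 0.66.

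Aldh2, the mitochondrial enzyme that clears most acetaldehyde, did not pass. It had 1014 units in the 1 week control pool, 1027, 1217, 1008 and 1031 units with rising restriction, 1159 units in the 1 month control pool and 1295, 1346, 1206 and 1080.2 units after it. The highest pools were the 10% pools of each duration, and controls overlapped with restricted pools. Its trend was -0.10 ± 0.0984 and its step 0.08 ± 0.0896, with adjusted p of 0.653 and 0.699 in limma. Of the 6 tested genes of alcohol oxidation (Adh1c, Adh4, Adh5, Cyp2e1, Aldh1a1 and Aldh2), 2 thus rose along the dose and 5 in the step. Of all tested probe sets 1.8% and 3.16% did. The median step of these 6 genes was 0.79, against 0.14 over the 45 probe sets, which include them, and 0.00225 over all tested.

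**Figure D2:**
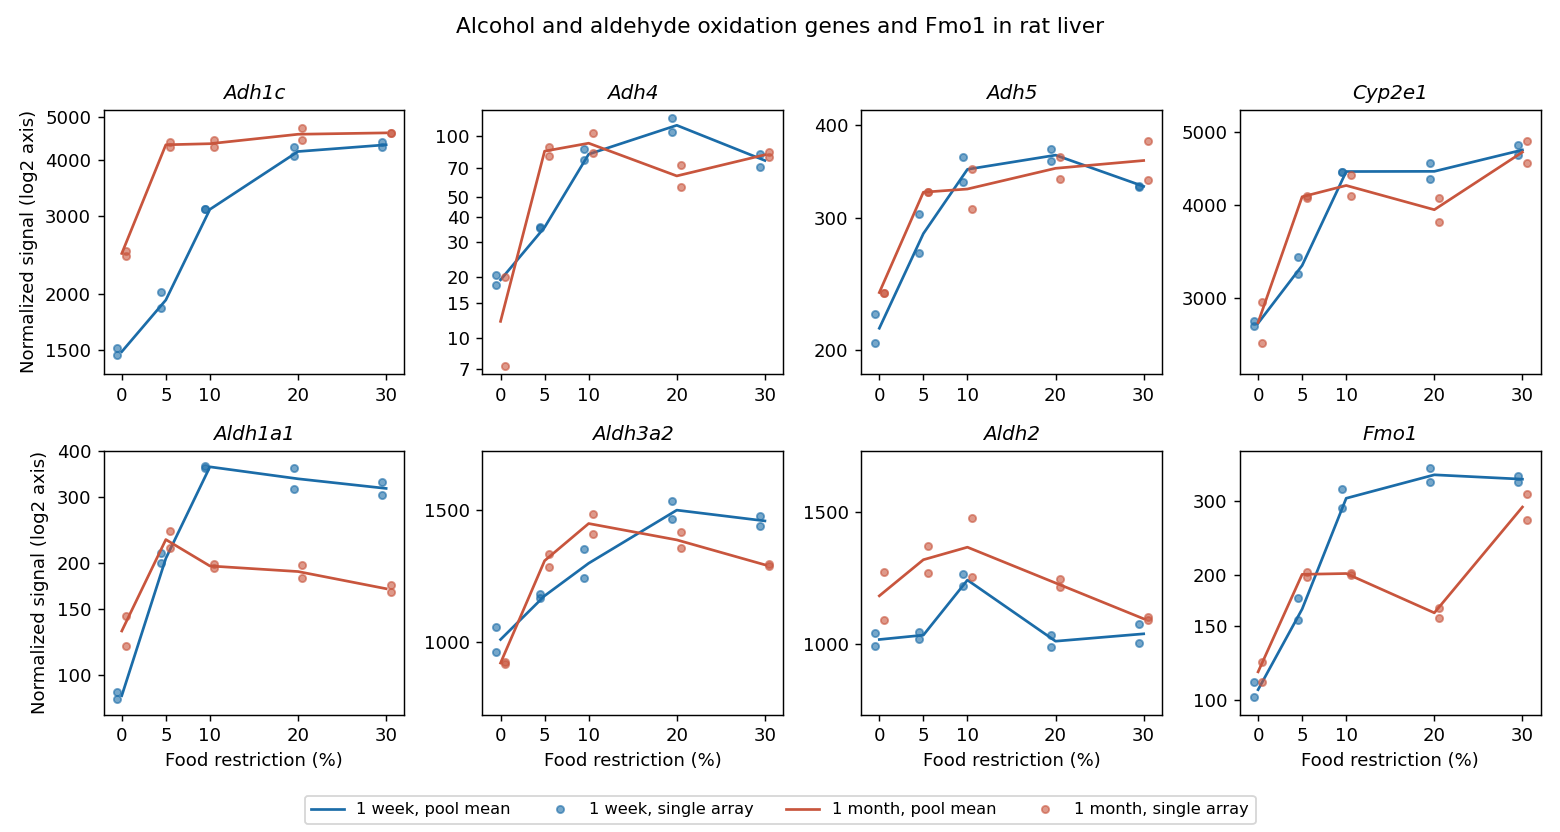
Normalized signal (log2 axis, arrays' units) against food restriction (%) for 8 genes; points are single arrays, lines join pool means, blue for 1 week and red for 1 month. Adh4 climbed from 19.4 and 12.1 units in the controls to between 35.4 and 113 units, Aldh1a1 stayed higher at 1 week than at 1 month from 10% on, and Aldh2 kept between 1008 and 1346 units.

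Of the aldehyde dehydrogenases of amino acid, choline and folate metabolism, 6 were tested. Of these 6 tested genes 0 passed the dose trend or the step. Aldh1l1, which oxidises formyltetrahydrofolate, had 449 and 507 units in the controls and 352 to 428 units in restricted pools, and its step of -0.26 ± 0.0793 had an adjusted p of 0.0808 in limma. Aldh5a1, the succinic semialdehyde dehydrogenase, had 44.0 and 42.2 units in the controls and 25.5 to 40.1 units under restriction (step -0.52 ± 0.176, adjusted p 0.119, limma). In both genes the controls lay above all restricted pools, as in 6.75% of all tested probe sets. Aldh4a1 (proline breakdown) kept between 689.8 and 827 units, Aldh7a1 (lysine breakdown) between 1164 and 1339 units and Aldh9a1 (carnitine synthesis) between 839.9 and 1115 units. The probe sets of Aldh6a1 (valine breakdown) ranged from 365 to 506 and from 616 to 862 units. Their steps had opposite signs, 0.09 and -0.06, and neither passed. Aldh16a1 ranged from 91.8 to 121 units and Aldh1a2, a retinal dehydrogenase, from 13.6 to 27.7 units, close to the lowest level tested.

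Fmo1, the flavin monooxygenase of rat liver, rose in both fits. It had 106 units in the 1 week control pool and 165, 305, 348 and 339 units with 5, 10, 20 and 30% restriction. At 1 month it had 117 units in the control pool and 200.2, 201, 162 and 291 units under restriction. All restricted pools lay above the controls, and at 20% the 1 month pool dropped below its neighbours. The trend was 1.24 ± 0.295 (2.37-fold, adjusted p 0.0407, limma) and the step 1.12 ± 0.260 (2.17-fold, adjusted p 0.0267, limma). Of 9 settings other than leave-outs, 5 lost the trend call and 1 the step call (limma adjusted p up to 0.244 and 0.0821). The trend kept its call in 24 of 32 fits that left out an array, the arrays of a number or a pool, with estimates from 0.95 to 1.36 and adjusted p up to 0.127. It was lost without the second arrays, the second array of the 10% pool of 1 week, the control pool of either duration, the 5, 20 or 30% pool of 1 week or the 30% pool of 1 month. The step was lost without either control pool, at adjusted p up to 0.325. Fibromodulin (Fmod), a matrix protein that meets the rule by its symbol only, was too dim to test.

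The P450s that differ between the sexes in rats gave the largest fall. Cyp2c12, a steroid sulphate hydroxylase that is abundant in adult females and scarce in adult males, dropped along the dose. It had 344 units in the 1 week control pool and 140.1, 53.1, 69.0 and 30.5 units with 5, 10, 20 and 30% restriction. At 1 month the control pool had 87.8 units and the restricted pools 29.2, 57.2, 35.5 and 14.5 units. Each restricted pool lay below the control of its own duration, and the 30% pool was the lowest of each, but the 1 month control lay below the 5% pool of 1 week. The controls alone were far apart, at 344 and 87.8 units. The lowest pool, at 14.5 units, was close to the lowest mean signal tested, 11.7 units. The signal fell by 2.48 ± 0.468 on the log2 scale over 30 points of restriction, 5.59-fold lower (adjusted p 0.0157, limma), and by 1.99 ± 0.498 in the step (3.97-fold lower, adjusted p 0.0355, limma). Of 9 settings other than leave-outs, 3 lost the trend call and 2 the step call (limma adjusted p up to 0.0873 and 0.101). The trend call was lost without the 30% pool of 1 week or the control pool of 1 month (estimates from -2.77 to -2.03, adjusted p up to 0.0904). The step call was lost in 8 of 32 such fits: without either control pool, the 10 or 20% pool of 1 week, the 5 or 20% pool of 1 month, the second arrays, or the second array of the 10% pool of 1 month. Its step then ran from -2.45 to -1.53 over the fits, with adjusted p up to 0.356.

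Cyp2c13, a male-predominant relative in the same cluster of chromosome 1, passed neither test. Its pool signals lay between 1639.9 and 2070.1 units, its trend was 0.02 ± 0.0675 and its step -0.00 ± 0.0624 (adjusted p 0.925 and 0.978, limma). Its probe set is of a type that Affymetrix marks as able to bind related transcripts. The starts of both genes are shown for comparison, chr1:248676985-248677284 on the - strand and chr1:248787139-248787438 on the - strand (RefSeq, GRCr8). Capitals mark TATAAA or its complement on either strand, held by 14.2% of rat promoters of this length and by 12 of 47 promoters in the set.
Cyp2c12: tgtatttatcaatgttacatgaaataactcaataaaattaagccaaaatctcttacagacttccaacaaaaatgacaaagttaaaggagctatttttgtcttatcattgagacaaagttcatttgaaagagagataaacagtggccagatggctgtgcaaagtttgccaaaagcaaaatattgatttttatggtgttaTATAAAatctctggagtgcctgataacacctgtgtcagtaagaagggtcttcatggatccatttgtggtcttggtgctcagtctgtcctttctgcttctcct
Cyp2c13: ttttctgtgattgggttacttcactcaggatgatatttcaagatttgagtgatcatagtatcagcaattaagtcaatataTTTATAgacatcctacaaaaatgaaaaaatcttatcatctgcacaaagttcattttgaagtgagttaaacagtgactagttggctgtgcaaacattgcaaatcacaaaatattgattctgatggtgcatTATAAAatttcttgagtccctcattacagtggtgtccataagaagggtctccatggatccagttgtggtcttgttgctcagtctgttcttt
The nearest match began 52 bases before the annotated start in Cyp2c12 and 41 bases before it in Cyp2c13, and Cyp2c13 held another match 170 bases before its start. No D-box or E-box match lay in either window.

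Cyp2a2, a male-predominant testosterone hydroxylase, also fell along the dose. It had 1435 units in the 1 week control pool and 1289.7, 1311, 1114 and 928 units with 5, 10, 20 and 30% restriction, then 1314 units in the 1 month control pool and 1152, 1073, 962 and 909 units. Both controls lay above all restricted pools, and the 30% pools were the lowest. The trend fell by 0.55 ± 0.0685 (1.47-fold lower, adjusted p 0.00298, limma), and the call held in all 32 fits that left out an array, the arrays of a number or a pool (adjusted p up to 0.0328). It was lost on the signals as deposited and with the GAPDH ratio in the model, with adjusted p up to 0.726. A probe set shared by Cyp2a2 and Cyp2a1 kept between 1375 and 1572 units, with a trend of -0.06 ± 0.0686 (adjusted p 0.706, limma), so the fall was seen in the probe set for Cyp2a2 alone.

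The other genes of the sex-dependent lists did not change together. Of 5 tested male-predominant genes 1 rose (Cyp3a18) and 1 fell (Cyp2a2) along the dose, and of 4 female-predominant genes 1 fell (Cyp2c12). Among all tested probe sets 1.8% rose and 1.96% fell. Cyp2c11, the main male testosterone hydroxylase, kept between 3277 and 3681 units (trend -0.07 ± 0.0611, adjusted p 0.573, limma). Cyp2c7 and Cyp2a1, both higher in females, ranged from 3609 to 4300.3 units and from 138 to 234 units and passed neither test. Markers of other liver cells were recorded beside these falls. The summed signal of 6 macrophage genes was 826 to 887 units in controls and 637 to 821 units under restriction, and that of 4 bile duct genes 66.5 to 77.0 and 42.8 to 59.9 units. In the bile duct list Krt19 and Spp1 were below the lowest level tested in every pool, and 0 of 6 macrophage and 0 of 1 tested bile duct genes passed either test. Endothelial genes summed to 196 to 237 units in controls and 254 to 329 units under restriction, with Ehd3 higher along the dose and Kdr higher in the step. Summed stellate cell genes (411 to 532 against 378 to 612 units) and red blood cell genes (1187 to 2120.0 against 1010.5 to 1882 units) overlapped. Their part in the results was not tested.

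Cyp2j4 and Cyp2c23, epoxygenases of arachidonic acid, both rose along the dose, and Cyp2j3 did not. Cyp2j4 had 129.7 units in the 1 week control pool and 194, 228, 258 and 274 units with 5, 10, 20 and 30% restriction, then 148 units in the 1 month control pool and 185, 201, 217 and 249 units. The order of the pools was that of the ration at both durations, with the controls below all restricted pools. Its trend was 0.80 ± 0.145 (1.74-fold, adjusted p 0.0136, limma) and its step 0.69 ± 0.141 (1.62-fold, adjusted p 0.0154, limma). Of 9 settings other than leave-outs, 5 lost the trend call and 1 the step call (limma adjusted p up to 0.241 and 0.0546). The trend call was lost without the 30% pool of 1 week or the control pool of 1 month (0.62 to 0.89, adjusted p up to 0.0573), and the step call without either control pool (adjusted p up to 0.253).

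Cyp2c23 had 1216 units in the 1 week control pool and 1307, 1378, 1770.3 and 1887 units with 5, 10, 20 and 30% restriction, then 1695 units in the 1 month control pool and 1804, 1927, 1958 and 2061 units. Each series followed the ration, but the 1 month pools stood above the 1 week pools of the same ration, so controls and restricted pools overlapped. The trend was 0.47 ± 0.0864 (1.38-fold, adjusted p 0.0145, limma) and the step of 0.28 ± 0.118 did not pass (adjusted p 0.222, limma). Processing mattered: 5 of 9 settings other than leave-outs lost the trend call (limma adjusted p up to 0.493). The trend call was lost without the control or the 30% pool of 1 week (0.41 to 0.58, adjusted p up to 0.0964). Cyp2j3 ranged from 296 to 375 units, with a trend of 0.20 ± 0.0900 (adjusted p 0.260, limma).

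A list of P450 genes for CAR, PXR and AhR held 7 tested members: Cyp1a2, Cyp1b1, Cyp2b3, Cyp3a2, Cyp3a9, Cyp3a18 and Cyp3a23-3a1. Whether each is induced through these receptors was not tested. Of these 7 genes, 1 (Cyp3a18) rose along the dose and 0 passed the step, and the median trend was 0.40. Among all tested probe sets 1.8% rose along the dose and 3.16% in the step. Cyp3a18, a steroid and drug hydroxylase, had 529 units in the 1 week control pool and 583, 800.3, 888 and 1101 units with 5, 10, 20 and 30% restriction. At 1 month it had 958 units in the control pool and 1035, 976, 884 and 1483 units. The 1 week series climbed throughout, whereas at 1 month only the 30% pool stood clear of the control. The trend was 0.76 ± 0.163 (1.69-fold, adjusted p 0.0278, limma). Its call was lost in 5 of 9 settings other than leave-outs (limma adjusted p up to 0.233). The call was lost without the second arrays, the control, 5, 20 or 30% pool of 1 week or the 30% pool of 1 month, with estimates from 0.66 to 0.86 and adjusted p up to 0.140.

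The other Cyp3a genes missed the threshold. Cyp3a2 had 1213 and 1289 units in the controls, below the restricted range of 1323 to 2239 units, with the highest signal in the 20% pool of 1 week (trend 0.40 ± 0.182, adjusted p 0.253, limma). Cyp3a23-3a1 ranged from 762 to 1438 units (trend 0.42 ± 0.130, adjusted p 0.0968, limma), and Cyp3a9 from 63.9 to 169 units (adjusted p of its trend 0.847, limma). Cyp1a2, the AhR target that clears caffeine, had 540.1 and 452 units in the controls and 519 to 1054 units in restricted pools. Its trend of 0.62 ± 0.175 did not pass (adjusted p 0.0739, limma), but the 30% pools were 1.73-fold above control (0.79 ± 0.166, adjusted p 0.0267, limma). Cyp1a1, the most inducible AhR target, was too dim to test (1.17 to 7.37 units). Cyp2b3 kept between 1935 and 2361 units (trend 0.12 ± 0.0545, adjusted p 0.263, limma).

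A probe set shared by Cyp2b1 and Cyp2b2, the classical genes induced by phenobarbital through CAR, is outside the set but belongs beside these values. It had 142 units in the 1 week control pool and 122.6, 174, 309 and 358 units with 5, 10, 20 and 30% restriction, then 139.9 units in the 1 month control pool and 248, 199.6, 263 and 341 units. The 20 and 30% pools stood well above both controls, and the 5% pool of 1 week stood below them. The trend was 1.33 ± 0.199 (2.51-fold, adjusted p 0.00610, limma), and which of these genes changed cannot be told apart. How the shared probe sets fared in the alternative settings is not reported here. Among the other shared probe sets, that for Cyp2d1 and Cyp2d5 rose in the step (0.39 ± 0.0952, adjusted p 0.0326, limma), and that for Ces1f and Cesl1 did not pass (trend -0.10 ± 0.0990).

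The remaining P450s passed neither the trend nor the step. Cyp2d2 ranged from 2239 to 2923 units and Cyp2d3 from 1479 to 1851 units. Cyp2d4 had probe sets at 84.5 to 145 units and at 30.2 to 46.0 units, whose trends, 0.19 and -0.13, had opposite signs and did not pass. Cyp2c6v1 had controls (1750.2 and 1841 units) below all restricted pools (1950.3 to 2363 units), with a step of 0.27 ± 0.0762 (adjusted p 0.0639, limma). Cyp2c22 ranged from 1502 to 2900.4 units, Cyp2f4 from 95.2 to 131 units, Cyp2t1 from 60.004 to 94.9 units and Cyp1b1 from 12.2 to 22.6 units.

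Of the carboxylesterases, which hydrolyse drug esters and lipids, Ces1d and Ces1e rose along the dose while Ces1c and Ces2c did not pass. Ces1c, Ces1d and Ces1e lie close together on chromosome 19, and the starts of all 3 hold the D-box TTANGTAA, which 2.24% of 33469 rat promoters hold on either strand and which 4 of 47 promoters in the set hold (the other being Cyp2g1, too dim to test). They are shown for that reason, with the D-box in capitals: chr19:30099197-30099496 on the + strand, chr19:30046244-30046543 on the + strand and chr19:30005923-30006222 on the + strand (RefSeq, GRCr8).
Ces1c: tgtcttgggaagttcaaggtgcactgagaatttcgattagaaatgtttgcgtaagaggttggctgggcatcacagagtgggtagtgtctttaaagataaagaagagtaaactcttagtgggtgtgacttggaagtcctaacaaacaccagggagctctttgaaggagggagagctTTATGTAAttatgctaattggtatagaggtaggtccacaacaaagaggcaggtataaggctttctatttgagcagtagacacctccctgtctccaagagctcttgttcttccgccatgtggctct
Ces1d: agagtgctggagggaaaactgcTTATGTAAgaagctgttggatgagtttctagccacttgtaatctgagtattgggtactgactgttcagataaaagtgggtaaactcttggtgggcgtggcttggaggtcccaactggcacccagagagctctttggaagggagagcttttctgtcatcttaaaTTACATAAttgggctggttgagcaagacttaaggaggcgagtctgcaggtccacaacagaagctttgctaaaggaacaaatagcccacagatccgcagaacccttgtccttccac
Ces1e: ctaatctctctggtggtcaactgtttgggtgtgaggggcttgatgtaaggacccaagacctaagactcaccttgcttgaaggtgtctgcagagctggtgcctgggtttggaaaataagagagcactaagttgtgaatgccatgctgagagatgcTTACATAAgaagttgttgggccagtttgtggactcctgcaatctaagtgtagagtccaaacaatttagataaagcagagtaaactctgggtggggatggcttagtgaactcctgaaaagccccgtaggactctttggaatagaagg
Ces1c held TTATGTAA 75 bases before its start, Ces1e held TTACATAA 96 bases before it, and Ces1d held TTATGTAA and TTACATAA 228 and 65 bases before it. In Ces1d 1 D-box match shared bases with a CCAAT match. A match is a description of letters, and binding was not measured.

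Ces1e had 169 units in the 1 week control pool and 177, 198, 226 and 235 units with 5, 10, 20 and 30% restriction, then 178 units in the 1 month control pool and 218, 221, 265 and 279.6 units. Each series followed the ration, with the 5% pool of 1 week at the level of the controls. The trend was 0.56 ± 0.0916 (1.47-fold, adjusted p 0.00957, limma), and it held in all 32 fits that left out an array, the arrays of a number or a pool (adjusted p up to 0.0440). It was lost on the signals as deposited, with median centring and with the GAPDH ratio in the model, with adjusted p up to 0.569.

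Ces1d, also known as a triacylglycerol hydrolase, had 670.0 units in the 1 week control pool and 659, 844, 1066 and 1147 units with 5, 10, 20 and 30% restriction. At 1 month it had 724 units in the control pool and 875, 666, 759.6 and 1209.8 units. The 30% pools were the highest of each duration, and milder restriction overlapped with the controls. The trend was 0.73 ± 0.153 (1.66-fold, adjusted p 0.0245, limma). Its call was lost in 5 of 9 settings other than leave-outs (limma adjusted p up to 0.239). The call was lost without the control, 5, 20 or 30% pool of 1 week or the control or 30% pool of 1 month (0.63 to 0.81, adjusted p up to 0.109). Ces1c ranged from 1044 to 1668 units (trend 0.31 ± 0.131, adjusted p 0.223, limma) and Ces2c from 32.2 to 50.2 units (0.25 ± 0.181, adjusted p 0.505, limma).

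**Figure D3:**
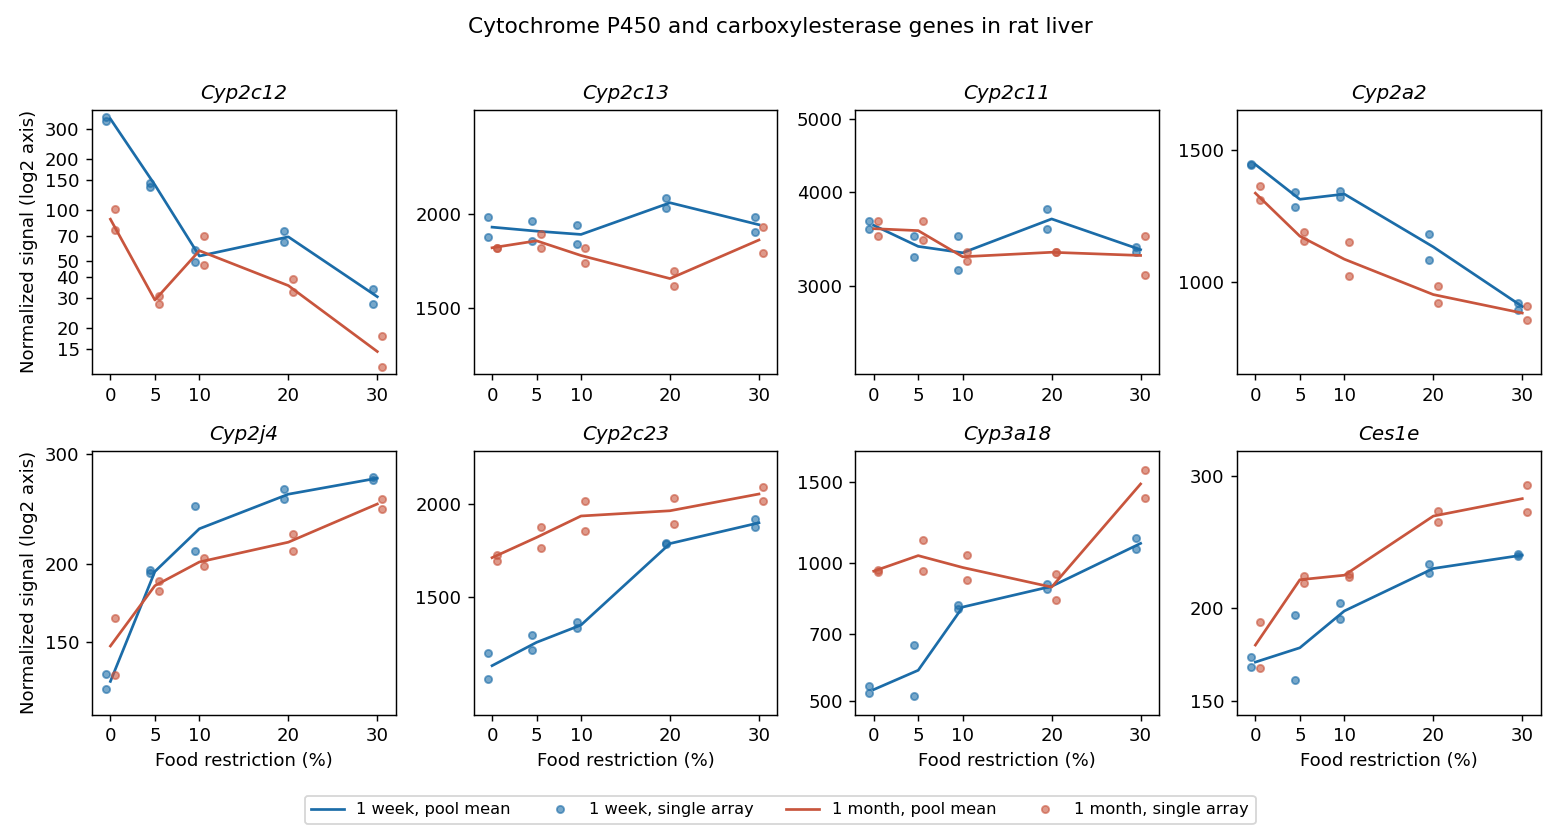
Normalized signal (log2 axis, arrays' units) against food restriction (%) for 7 P450 genes and Ces1e; points are single arrays, lines join pool means, blue for 1 week and red for 1 month. Cyp2c12 dropped from 344 to 30.5 units at 1 week and from 87.8 to 14.5 units at 1 month while Cyp2c13 and Cyp2c11 stayed level, and Cyp2j4, Cyp2c23 and Ces1e climbed.

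Each ration was also set against the control pools with ration as a factor. The 4 contrasts share the 2 control pools and were not compared with each other. At 5% restriction 0 of 45 probe sets passed in limma (0.273% of all tested rose and 0.179% fell), with 10 of 45 and 936 of 9520 at an unadjusted p under 0.05. The largest estimate at 5% was that of Adh4, 1.83 ± 0.397 (adjusted p 0.0879, limma). At 10%, 5 rose and 0 fell (1.33% and 0.851% of all tested): Adh1c, Adh4, Adh5, Cyp2e1 and Cyp2j4. At 20%, 7 rose and 1 fell (2.16% and 1.64% of all tested), with Aldh3a2 and Ces1e joining those that rose and Cyp2a2 falling. At 30%, 12 rose and 2 fell (2.45% and 2.08% of all tested). Those were the 7 of the 20% contrast with Ces1d, Cyp1a2, Cyp2c23, Cyp3a18 and Fmo1, and Cyp2a2 and Cyp2c12 among those that fell. At 30% Fmo1 was 2.83-fold above control (1.502 ± 0.272, adjusted p 0.0130, limma), and Cyp2c12 fell by 3.05 ± 0.439 (8.28-fold lower, adjusted p 0.00396, limma). With the actin ratio in the model 0 of the 14 passed at 30%, and without the variance trend 1 did. Of all 9520 tested probe sets, 1 rose and 0 fell at 30% with the actin ratio, and 49 and 58 without the variance trend.

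Pools were also compared with the control of their own duration by size alone, without a test, as at least 2-fold with both arrays of a pool beyond both of the other. At 1 week 1 probe set was higher at 5%, 4 at 10%, 4 at 20% and 6 at 30%, where 1.85, 2.24, 2.59 and 2.65% of all tested were. At 1 month 1, 1, 1 and 2 were higher (3.28, 3.24, 2.67 and 2.79% of all tested). Adh4 met the rule in 7 of 8 pools, all but the 5% pool of 1 week, and Aldh1a1 in the 4 pools of 1 week. Adh1c met it from 10% on at 1 week, Fmo1 in the same 3 pools and the 30% pool of 1 month, and Cyp2j4 and Cyp3a18 in the 30% pool of 1 week. Cyp2c12 was the only member lower by this rule, in 7 of 8 pools, all but the 10% pool of 1 month. From 5 to 30%, 1.93, 1.39, 2.33 and 3.22% of all tested probe sets were lower at 1 week and 2.34, 2.72, 2.05 and 2.16% at 1 month. Controls of both durations lay below every restricted pool for 9 of the 45 probe sets (7.55% of all tested) and above them for 3 (6.75% of all tested). The 3 of 45 are no more than the share over the array. Restricted pools lay wholly on opposite sides of their controls at the 2 durations for 2 of the 45 (6.71% of all tested).

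**Figure D4:**
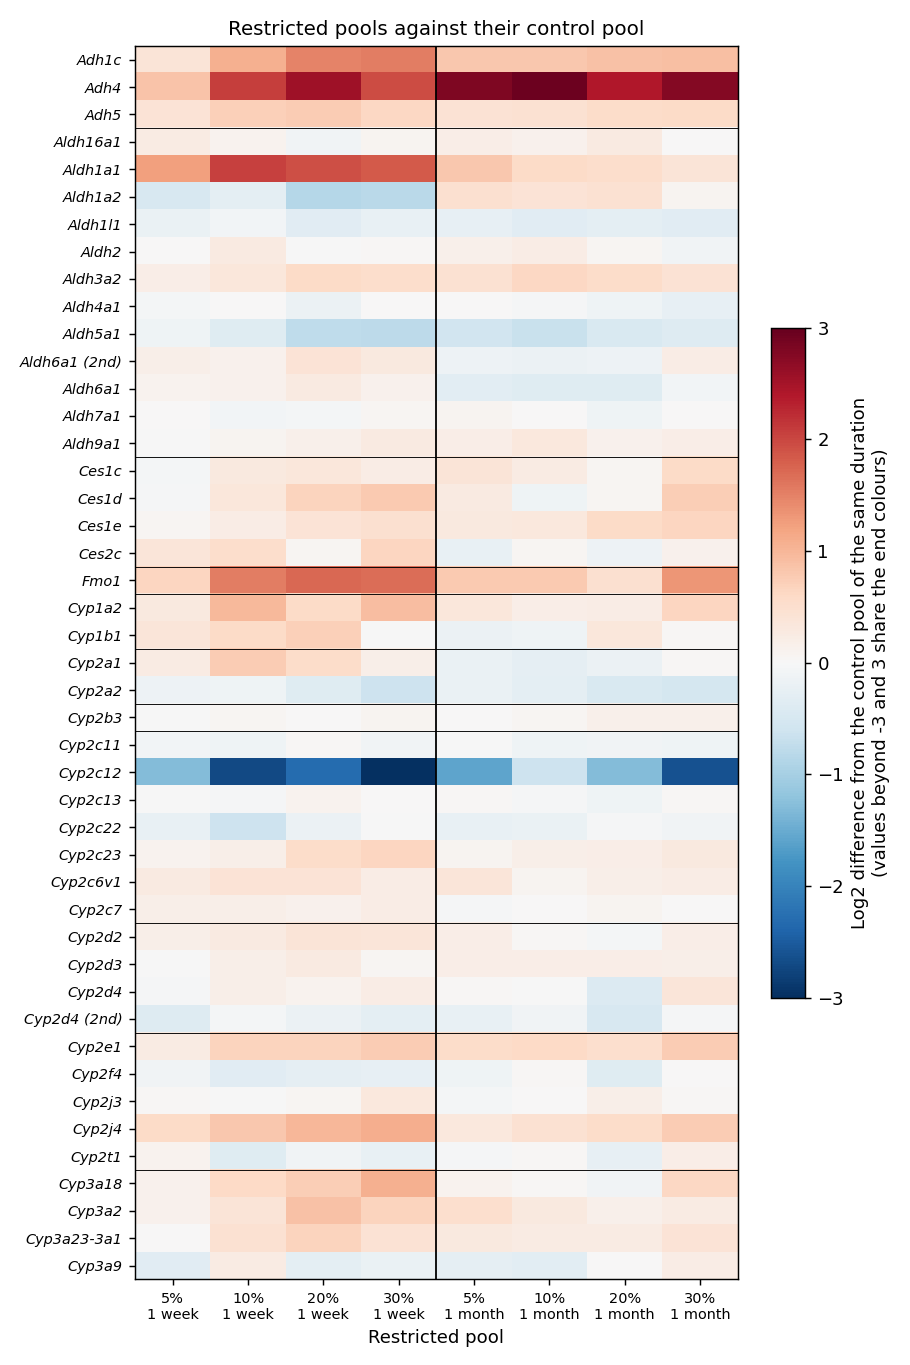
Log2 difference of each restricted pool (columns) from the control pool of its duration for the 45 tested probe sets (rows, by family); red is higher, blue lower, and values beyond 3 share the end colours. The Adh4 row is red in all 8 pools, Aldh1a1 is deeper red at 1 week than at 1 month, and Cyp2c12 is blue throughout.

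Within the durations, the 1 week slope passed for 3 genes that rose and 1 that fell (0.294% and 0.42% of all tested): Adh1c (1.58 ± 0.295), Cyp3a18 (1.05 ± 0.206), Cyp2c23 (0.68 ± 0.0900) and Cyp2a2, which fell by 0.60 ± 0.0985, with limma adjusted p of 0.0454, 0.0483, 0.0202 and 0.0302. At 1 month 0 of 45 passed in limma (0% of all tested rose and 0.0315% fell), with 10 of 45 and 995 of 9520 at an unadjusted p under 0.05. The 1 month slopes of those genes were 0.65, 0.46, 0.26 and -0.51. The difference between the slopes passed for 0 of 45 and 0 of 9520 in limma, with 3 and 525 at an unadjusted p under 0.05, so the slopes are not shown to differ between durations. The lowest adjusted p of a difference in the set was 0.903. The 1 week calls were lost on leaving out the control, 5 or 30% pool of 1 week (0 passed), and 13 passed without the 1 month control.

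Between durations, with ration in the model, 2 genes were higher at 1 month and 0 lower (0.168% of all tested each way). Cyp3a9, a female-predominant steroid hydroxylase, had 80.8, 63.9, 95.4, 66.3 and 70.3 units at 1 week and 144, 119.8, 116, 146 and 169 units at 1 month, from control to 30%. All 1 month pools lay above all 1 week pools. The difference was 0.89 ± 0.133 (1.85-fold, adjusted p 0.0183, limma). The Cyp3a9 call was lost on the signals as deposited, without the variance trend, without the second arrays and without the 5, 20 or 30% pool of 1 week or the 20% pool of 1 month, at adjusted p up to 0.0859. Cyp2c23 was 0.34 ± 0.0620 higher (1.27-fold, adjusted p 0.04997, limma), next to the threshold, and its call was lost in 6 of 9 other settings and in 24 of 32 fits that left out an array, the arrays of a number or a pool. Over those 32 fits the Cyp2c23 difference ran from 0.31 to 0.39, with adjusted p up to 0.135. Duration, age and any batch changed together here and cannot be told apart.

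Genes around phase I metabolism were counted from lists. Of all 9520 tested probe sets, 1.8% rose and 1.96% fell along the dose, and 3.16% rose and 2.11% fell in the step. Of 12 tested genes of electron transfer and haem supply, 2 rose and 1 fell along the dose, and 1 rose and 2 fell in the step. Por, the P450 oxidoreductase, had 146 and 169 units in the control pools of 1 week and 1 month. With 5, 10, 20 and 30% restriction it had 296, 475, 982 and 1077 units at 1 week and 776, 943, 1071 and 888 units at 1 month. All restricted pools lay above the controls. The Por trend was 2.31 ± 0.498 (adjusted p 0.0278, limma) and the step 2.26 ± 0.357 (adjusted p 0.00428, limma). For Por and the other list genes, the alternative settings are not reported here. Over all 9520 tested probe sets the dose trend called 27 rises and 116 falls with median centring. With the GAPDH ratio it called 1 and 2. Cyb5a, the cytochrome b5 that assists P450s, rose by 0.36 ± 0.0691 (adjusted p 0.0169, limma) and Cyb5r3 fell by 0.38 ± 0.0882 (adjusted p 0.0370, limma). In the step Cyb5r3 fell by 0.34 ± 0.0793 (adjusted p 0.0260, limma) and Ppox, an enzyme of haem synthesis, by 0.92 ± 0.204 (adjusted p 0.0225, limma).

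Of 23 tested receptors and liver factors, 2 rose along the dose, and 5 rose and 1 fell in the step. For this list and those below, the shares over all tested probe sets were 1.8% and 1.96% along the dose. In the step they were 3.16% and 2.11%. The 2 genes that rose along the dose were the xenobiotic receptors. Nr1i2 (PXR) had 101 and 124 units in the controls and 146 to 222 units in restricted pools (trend 0.79 ± 0.140, adjusted p 0.0126, limma). Nr1i3 (CAR) had 48.5 and 62.4 units in the controls and 78.6 to 146 units in restricted pools (trend 1.05 ± 0.204, adjusted p 0.0176, limma). In the step Foxa3, Hlf and Dbp also rose and Stat5b, which carries the growth hormone signal, fell by 1.09 ± 0.202 (adjusted p 0.0102, limma). Dbp entered the test through its restricted pools, since both its controls lay under the lowest mean signal tested, 11.7 units. Its step call is therefore not a sound test of a rise. Of 33 tested phase II genes, which conjugate the products of phase I, 4 rose along the dose (Gsta1, Inmt, Sult2a6 and Ugt2b1). In the step 3 of these genes rose (all but Gsta1) and Sult4a1 fell. Of 13 other P450s tested, 2 rose and 1 fell along the dose, and 6 rose and 1 fell in the step. Among the 6 was Cyp7a1, which starts bile acid synthesis from cholesterol (2.26 ± 0.331, adjusted p 0.00255, limma), and the 1 that fell was Cyp51, of cholesterol synthesis (-1.01 ± 0.248, adjusted p 0.0326, limma).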

How the data were processed

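Liver RNA was measured on 20 Affymetrix arrays. The authors deposited 1 linear intensity for each probe set and array. The submitters' processing notes name MAS5. The version and the scaling target were not given in the sources used here. After 57 control probe sets were removed, 32 values of 0 took the lowest positive signal on the same array, and log2 signals were quantile normalized. The log2 values of the 2 arrays of a pool were averaged (n = 10 pools, because arrays of a pool repeat 1 RNA). The upper 60% by mean log2 signal was tested, 9520 probe sets. Models were fitted with limma 3.58.1 under R 4.3.3 (eBayes with a variance trend on mean signal). Tests were two-sided and were adjusted by Benjamini-Hochberg over all tested probe sets at 0.05. With 1 pool a condition, the p-values measure departure from the fitted model, not the spread between rats, and the number of arrays limits the precision. Leave-out fits dropped an array, all arrays of 1 number or a pool, 32 in all; 9 other settings are compared in the closing section. On simulated data with 9520 probe sets, 64% of log2 changes of 1 and 93% of changes of 2 were recovered for the dose trend, and 70% and 94% for the step. The simulated noise was independent between pools and the changes followed the fitted model exactly. These shares check the fit and are not rates for the real pools. Gene names came from GEO's platform annotation, in which 12783 probe sets carry 1 gene, and RefSeq's rat table altered 0 of these symbols. The array names no genome build, so gene coordinates other than RefSeq starts are not given. RefSeq starts matched 47 of 53 genes. Named were all members passing the dose, step or duration test, and a list of further members described by level. Members and lists were chosen with earlier results of these data known.

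The array number does not pair pools, since arrays of a pool share 1 RNA and the numbers are not stated to mark a shared day.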

Additional observations from a re-analysis of the deposited data

Results flagged for a closer look

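In 2 probe sets every restricted pool of 1 week lay on one side of its control pool and every restricted pool of 1 month on the other. The same held for 639 of 9520 tested probe sets (6.71%), so 2 of 45 is no more than the share over the array. For Aldh1a2, a retinal dehydrogenase, the mean restricted minus control difference was -0.61 on the log2 scale at 1 week and 0.36 at 1 month, so that the durations were 0.97 apart. The test of the slope difference did not pass (0.77, limma adjusted p 0.927). Its signals were low, 13.6 to 27.7 units, and its repeat arrays differed by an SD of 0.335 (log2). For the brighter probe set of Aldh6a1, of valine breakdown, the means were 0.16 at 1 week and -0.28 at 1 month, a gap of -0.43, and the slope difference of -0.17 did not pass either (limma adjusted p 0.965). The dimmer probe set of Aldh6a1 was not divided in this way.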

How the results depend on the processing

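No member estimate that passed the dose trend, the step or the duration comparison changed its sign under the alternatives run. The count of members passing, which need not be the same members, moved by over 1.5 times as follows. For the dose trend (10), 1 passed on the signals as deposited, 2 with median centring, 2 without the variance trend, 0 with the GAPDH ratio as covariate, and 2 with actin's. Over all 9520 tested probe sets the reported trend called 171 rises and 187 falls. These settings called 18, 27, 42, 1 and 17 rises and 40, 116, 66, 2 and 28 falls, in turn. For the step (9), 2 passed without the variance trend, where 117 of all tested rose and 75 fell, against 301 and 201 as reported. At 5% restriction (0), 3 passed on the deposited signals, where 85 of all tested rose and 27 fell. At 10% (5), 2 passed with median centring, 0 without the variance trend, 3 with GAPDH's ratio, 3 with actin's. All tested probe sets gave 91, 0, 124 and 71 rises and 67, 0, 72 and 45 falls, in turn. At 20% (8), 4 passed with median centring, 0 without the variance trend and 4 with the GAPDH ratio. All tested probe sets gave 103, 0 and 118 rises and 99, 0 and 83 falls, in turn. At 30% (14), 6 passed on the deposited signals, 6 with median centring, 1 without the variance trend, 5 with GAPDH's ratio, 0 with actin's. All tested probe sets gave 164, 99, 49, 105 and 1 rises and 97, 151, 58, 92 and 0 falls, in turn. For the 1 week slope (4), 1 other member and 0 of the 4 passed on the deposited signals, 0 with median centring, 1 without the filter on signal, and 0 each without the variance trend or with either ratio. All tested probe sets gave 10, 6, 12, 0, 1 and 0 rises there, in turn. Falls were 33, 42, 20, 0, 2 and 0. For duration (2), 0 passed on the deposited signals, 1 with median centring, 1 without the filter, 0 without the variance trend, 1 with GAPDH's ratio, 1 with actin's. All tested probe sets gave 3, 2, 9, 0, 10 and 11 rises there, in turn. Falls were 0, 4, 8, 1, 6 and 9. The rule of size gave 27 pairs of member and pool, 47 on the deposited signals and 75 at 1.5 times. The deposited signals shifted the median of all probe sets by 0.11 in the dose trend and 0.25 in the step. The cause of these moves was not tested.

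Leaving out arrays or pools gave 2 to 11 passing members for the dose trend, 1 to 15 for the step, 0 to 3 at 5%, 0 to 9 at 10%, 0 to 11 at 20%, 2 to 14 at 30%, 0 to 13 for the 1 week slope, 0 for the 1 month slope and the slope difference, and 0 to 2 for duration. The dose count fell to 2 without the 30% pool of 1 week, 4 without either control pool, and 5 without the 5 or 20% pool of 1 week. The step count was 1 without either control pool and 15 without the 5% pool of 1 week. Where a ration was left with a lone pool, that pool was taken to vary like the others. The counts over all tested probe sets in these leave-out fits are not reported here.

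With the array number as a replicate block and the pool as a random effect (correlation 0.228), 15 members passed the dose trend, 14 the step, 9 at 5%, 13 at 10%, 16 at 20%, 18 at 30%, 14 the 1 week slope, 4 the 1 month slope, 0 the slope difference and 10 duration. Calls rose over the whole array too. Of all 9520 tested probe sets, 426, 511, 159, 369, 465, 515, 278, 67, 1 and 97 rose, in that order. Those that fell were 392, 373, 108, 263, 370, 438, 268, 87, 1 and 100. This fit counts arrays rather than pools, and all members passing in the reported dose, step and duration fits passed in it too.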

Other observations

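Dbp, a clock factor whose signal was 4.17 and 7.12 units in the control pools and 33.5 to 296 units in restricted pools, was set beside the 8 members that rose in the step. Over the 8 restricted pools alone, the Pearson correlation with Dbp ran from -0.27 for Cyp2j4 to 0.61 for Aldh1a1, and it was 0.19 for Adh4 and -0.14 for Cyp2e1. For Ces1d and Ces1e, which hold the D-box and rose along the dose alone, it was -0.41 and -0.54. Over all 10 pools it was 0.25 and 0.43 for these genes. For the 8 members that rose in the step it then ran from 0.65 for Adh1c to 0.87 for Aldh1a1. Those 8 were chosen by their rise from the controls, which Dbp shares, so high values were to be had. These are descriptions over 8 or 10 pools that were normalized together, with no test, and the part of Dbp in these genes was not tested.

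The members outside the test were dim in every pool. Their highest pool signals ran from 2.69 units for Cyp2b12 to 17.2 units for Aldh18a1, with Cyp2s1 at 16.4, Cyp2g1 at 14.9, Fmod at 14.04, Aldh3a1 at 11.7, Cyp2a3 at 11.006, Adh7 at 10.498, Cyp2b21 at 9.46 and Cyp1a1 at 7.37 units.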
